A study of Glycine max with 47 samples.

Results

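Phenylalanine ammonia-lyase (PAL) is encoded in soybean by a small gene family, and 8 of its members were followed across all groups of a root RNA-seq series. The members were set as a list of 8 IDs among the 55983 genes of the count table, with earlier results of these data known. All 8 reached 0.5 CPM (estimated counts scaled by the library total) in 1 library or more, the filter that 43122 genes of the table passed. The study asked how soybean cyst nematode (SCN), a root parasite, and soybean aphid (SBA), a sap feeder on the leaves, act alone and together on root gene expression in a resistant and a susceptible cultivar.

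MN1806CN resists the SCN population used (HG type 0), and PI518671, which is the cultivar Williams 82, is susceptible to it, while both cultivars are susceptible to the aphids. Each cultivar received 4 treatments: SCN (nematode eggs in the soil), SBA (biotype 1 aphids put on the leaves of young plants), SCN:SBA (both pests) and a control with neither pest. Whole roots were harvested at 30 and 5 days post infestation (dpi), and each library came from 1 plant. The days count from the aphid infestation. The nematode eggs were added earlier, at planting, so at a given dpi the roots had been exposed to SCN for longer than that. The 5 dpi plants stood in Water bath I and the 30 dpi plants in Water bath II, so time point and water bath cannot be told apart. The 47 libraries form 16 groups, of 3 libraries in every case but the MN1806CN control at 30 dpi (2 libraries). Plants of a group came from different blocks of the greenhouse, so the spread within a group includes the spread between plants.

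PAL removes ammonia from phenylalanine and releases cinnamate, which is the entry step of the phenylpropanoid pathway. The pathway supplies lignin and other wall phenolics, flavonoids, the isoflavonoids from which soybean makes its glyceollin phytoalexins, and part of the salicylate used in defence signalling. Plant PAL enzymes work as tetramers, plants usually carry several PAL genes, and wounding, infection and nodulation are known to change their transcription.

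The first digits of each ID give its chromosome in the Williams 82 annotation. The family has 2 members on chromosome 3 (Glyma.03g181600 and Glyma.03g181700), 2 on chromosome 10 (Glyma.10g058200 and Glyma.10g209800), and 1 each on chromosomes 2 (Glyma.02g309300), 13 (Glyma.13g145000), 19 (Glyma.19g182300) and 20 (Glyma.20g180800). The RefSeq annotation of Glycine_max_v4.0 also holds 8 genes with a PAL symbol, with the same number on each of these chromosomes, and the 2 on chromosome 3 are direct neighbours with 0 genes between them. Those symbols could not be joined to the IDs of the table, so the members are called by ID here, and no position, protein or promoter sequence is given for them.

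Several members share reads. The authors counted with Salmon, which divides a read that fits several transcripts among them, so a gene that shares no read has a whole-number count. Glyma.02g309300 had a whole count (within 0.0025) in 47 of 47 libraries. The sum of Glyma.10g209800 and Glyma.20g180800 was whole in 47 of 47 libraries. The sum of Glyma.10g058200 and Glyma.13g145000 was whole in 42 of 47 libraries, and the sum of Glyma.03g181600, Glyma.03g181700 and Glyma.19g182300 in 43 of 47. Each of the 7 other members alone was whole in at most 3 libraries. Leaving out pairs and sets with Glyma.02g309300, any other pair was whole in at most 1 and any other set of 3 in at most 3. On this basis the members were put into 4 read classes, called A (Glyma.03g181600, Glyma.03g181700, Glyma.19g182300), B (Glyma.10g058200, Glyma.13g145000), C (Glyma.10g209800, Glyma.20g180800) and D (Glyma.02g309300). In the remaining libraries the sums of A and B lay up to 0.311 and 0.318 from a whole number. Classes A and B may thus share some reads with each other or with other genes, and sets of more than 3 members were not checked. How a class's reads divide among its members is Salmon's estimate, and beside each call of a member the same test is given for the summed class.

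The libraries held 8472717 to 47902174 estimated counts (median 18350922). CPM were scaled by edgeR's trimmed mean of M-values (TMM). Replicates 2 and 3 of the PI518671 control at 5 dpi stood apart from the other 45 libraries. Their summed family level was 353 and 323 CPM, against 596 to 2682 CPM in the others, and without TMM scaling it was 219 and 227 CPM, against 479.8 to 2513 CPM. Their TMM factors were 0.621 and 0.703, against 0.785 to 1.22, and 40629 and 40005 genes had a count in them, against 40745 to 47189. The 10 most abundant genes took 8.15% of the counts in replicate 3 and the largest share of the series in replicate 2, against 1.92% to 9.21% in the others. Replicate 1 of that group had a family level of 926 CPM. Calls that rest on this group are also given without replicates 2 and 3, a choice made after the values were seen. Of 93 genes that separated the cultivars at 30 dpi by at least 2-fold with no overlap, 65.6% to 97.8% lay on the side of the labelled cultivar in each of the 24 libraries at 5 dpi, with the lowest value in those same 2 control libraries.

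The summed level of the 8 members was 1157 to 2682 CPM in the MN1806CN control at 30 dpi, which had the highest library, and 323 to 926 CPM in the PI518671 control at 5 dpi, which had the lowest. Reads of Glyma.10g058200 made up the largest share of the family's counts in MN1806CN, between 40.7% ± 2.82 under SBA at 30 dpi and 67.1% ± 5.55 in the control at 5 dpi (mean ± SD, n = 3 each). In PI518671 its share was 25.3% ± 2.73 under SCN at 30 dpi and 26.3% ± 2.83 under SCN at 5 dpi, and it reached 63.3% ± 13.6 in the control at 5 dpi (n = 3 each). These are shares of counts and are not corrected for transcript length, so they do not rank the members by transcript number. In whole roots, fewer cells of a type and less RNA per cell cannot be told apart.

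**Figure D1:**
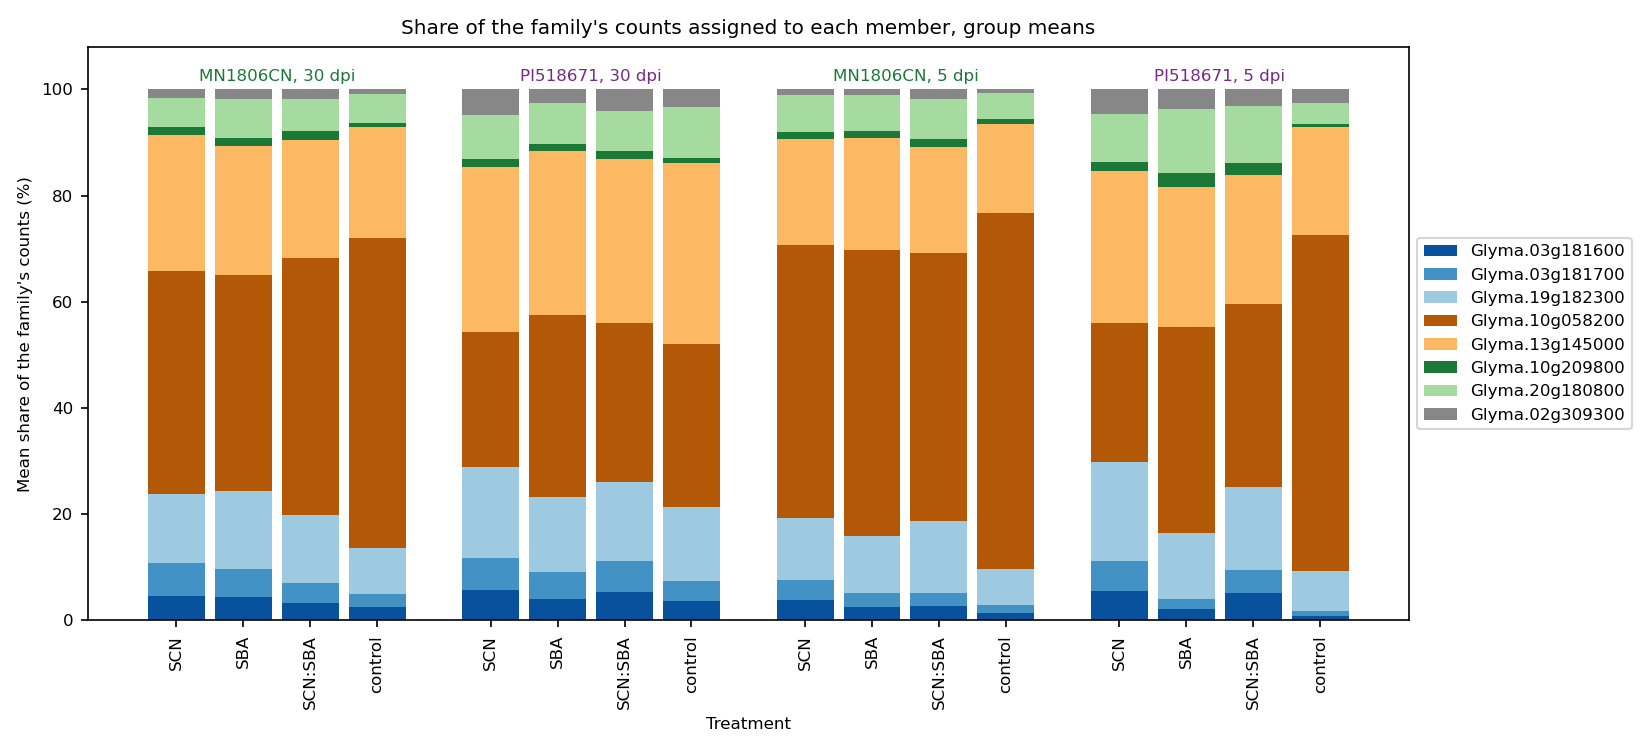
Mean share of the family's counts (%, vertical axis) assigned to each of the 8 members, stacked, in the 16 groups of cultivar, treatment and time point (horizontal axis). Glyma.10g058200 and Glyma.13g145000 together hold the largest part in every group, and Glyma.10g058200 alone averaged 67.1% in the MN1806CN control and 63.3% in the PI518671 control at 5 dpi. In the PI518671 control it ranged from 47.6% in replicate 1 to 71.7%.

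In class A, Glyma.03g181600 had 42.9, 52.6 and 67.3 CPM under SCN, 36.5, 37.3 and 87.5 CPM under SBA, 19.6, 31.7 and 29.3 CPM under SCN:SBA and 50.5 and 34.8 CPM in the control in MN1806CN at 30 dpi. In PI518671 at 30 dpi it had 38.0, 50.2 and 58.9 CPM under SCN, 28.0, 20.5 and 53.9 CPM under SBA, 37.1, 48.5 and 49.9 CPM under SCN:SBA and 41.6, 43.4 and 32.4 CPM in the control. The cultivars and treatments overlapped at this time, apart from SCN:SBA in MN1806CN, which lay below its control and below SCN:SBA in PI518671. At 5 dpi, MN1806CN had 20.8, 25.7 and 36.8 CPM under SCN, 42.6, 25.8 and 28.3 CPM under SBA, 22.1, 29.7 and 36.7 CPM under SCN:SBA and 9.58, 28.2 and 19.9 CPM in the control. PI518671 had 48.6, 77.8 and 45.9 CPM under SCN, 17.3, 18.9 and 25.5 CPM under SBA, 35.7, 59.3 and 44.0 CPM under SCN:SBA and 8.27, 1.20 and 2.85 CPM in the control at that time. All 9 PI518671 libraries with a pest lay above all 3 control libraries, and those with SCN, alone or with SBA, lay above those with SBA alone.

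Glyma.03g181700, also on chromosome 3, had 53.4, 76.1 and 92.8 CPM under SCN, 46.0, 39.97 and 109.6 CPM under SBA, 19.7, 40.1 and 33.9 CPM under SCN:SBA and 50.9 and 37.5 CPM in the control in MN1806CN at 30 dpi. Its PI518671 values at 30 dpi were 36.6, 47.2 and 71.2 CPM under SCN, 32.4, 28.2 and 63.1 CPM under SBA, 37.5, 48.7 and 58.7 CPM under SCN:SBA and 41.8, 47.1 and 35.0 CPM in the control. SCN and control did not overlap in MN1806CN, while every other treatment overlapped its control at this time. MN1806CN roots at 5 dpi had 17.4, 25.8 and 45.7 CPM under SCN, 39.2, 26.1 and 28.9 CPM under SBA, 23.4, 30.3 and 27.7 CPM under SCN:SBA and 17.4, 18.5 and 20.1 CPM in the control. For PI518671 at 5 dpi the values were 53.0, 79.6 and 45.5 CPM under SCN, 16.2, 16.9 and 26.1 CPM under SBA, 24.6, 43.9 and 54.3 CPM under SCN:SBA and 12.7, 3.21 and 3.27 CPM in the control. As for Glyma.03g181600, every PI518671 library with a pest was above the 3 controls. In MN1806CN at 5 dpi, SBA and SCN:SBA also lay above the control without overlap, and SCN overlapped it.

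Glyma.19g182300, the member of class A with the most counts, had 132, 149 and 190.3 CPM under SCN, 125, 161 and 233 CPM under SBA, 84.6, 120.1 and 114 CPM under SCN:SBA and 182 and 121 CPM in the control in MN1806CN at 30 dpi. PI518671 at 30 dpi had 124, 151 and 171 CPM under SCN, 132, 75.0 and 155 CPM under SBA, 118, 126 and 137 CPM under SCN:SBA and 162, 165 and 128 CPM in the control. Treatments overlapped their controls at 30 dpi apart from SCN:SBA in MN1806CN, which was lower. The 5 dpi values in MN1806CN were 77.0, 72.7 and 102 CPM under SCN, 145, 142 and 124 CPM under SBA, 121, 159 and 153 CPM under SCN:SBA and 56.9, 135 and 72.1 CPM in the control. Its PI518671 values at 5 dpi were 162, 218 and 214 CPM under SCN, 95.4, 120.1 and 165 CPM under SBA, 147, 174 and 105 CPM under SCN:SBA and 91.9, 18.4 and 22.9 CPM in the control. Again each treated PI518671 library lay above the 3 controls, by a small gap for replicate 1 of the control.

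In class B, Glyma.10g058200 had 451, 407 and 670.3 CPM under SCN, 345, 492 and 596 CPM under SBA, 293, 466 and 455 CPM under SCN:SBA and 1879.5 and 540.1 CPM in the control in MN1806CN at 30 dpi. It had 191, 248 and 211 CPM under SCN, 350.3, 271 and 228 CPM under SBA, 295, 229.8 and 236 CPM under SCN:SBA and 391, 327 and 289 CPM in the control in PI518671 at 30 dpi. Replicate 1 of the MN1806CN control was the highest of the 47 libraries and replicate 2 lay within the range of the treated MN1806CN libraries. At 5 dpi the member had 301, 324 and 529 CPM under SCN, 532, 681 and 942 CPM under SBA, 397, 551 and 725 CPM under SCN:SBA and 624, 876 and 1141 CPM in the control in MN1806CN. At the same time it had 178, 339.5 and 349.6 CPM under SCN, 423, 363 and 389 CPM under SBA, 298, 252 and 405 CPM under SCN:SBA and 441, 249.6 and 231 CPM in the control in PI518671. The PI518671 control at 5 dpi overlapped all 3 treatments for Glyma.10g058200, and the lowest PI518671 library at that time was replicate 1 under SCN.

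Glyma.13g145000, the other member of class B, had 267, 257 and 401 CPM under SCN, 192, 296 and 374 CPM under SBA, 130.0, 193 and 239 CPM under SCN:SBA and 412 and 307 CPM in the control in MN1806CN at 30 dpi. PI518671 had 253, 261 and 285 CPM under SCN, 408, 141 and 273 CPM under SBA, 272, 224 and 294 CPM under SCN:SBA and 423, 399.6 and 302 CPM in the control at 30 dpi. Values under SCN and SCN:SBA lay below the control in PI518671 and under SCN:SBA in MN1806CN. MN1806CN had 119, 116 and 211 CPM under SCN, 237, 265 and 333 CPM under SBA, 181, 237 and 231 CPM under SCN:SBA and 154, 254 and 252 CPM in the control at 5 dpi. PI518671 had 223, 389 and 311 CPM under SCN, 233, 272 and 301 CPM under SBA, 238, 243 and 186 CPM under SCN:SBA and 252, 65.5 and 48.8 CPM in the control at 5 dpi. Replicate 1 of that control was within the range of the treated libraries, and replicates 2 and 3 were below all of them.

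In class C, Glyma.10g209800 had 13.4, 21.5 and 20.4 CPM under SCN, 19.8, 11.2 and 20.5 CPM under SBA, 19.4, 12.4 and 9.49 CPM under SCN:SBA and 9.49 and 13.9 CPM in the control in MN1806CN at 30 dpi. In PI518671 at that time it had 12.5, 12.4 and 11.3 CPM under SCN, 7.49, 7.87 and 13.1 CPM under SBA, 15.9, 10.4 and 12.5 CPM under SCN:SBA and 12.4, 10.6 and 8.86 CPM in the control. No treatment was apart from its control in either cultivar at 30 dpi. Values at 5 dpi in MN1806CN were 8.85, 8.91 and 11.6 CPM under SCN, 15.1, 18.0 and 16.8 CPM under SBA, 12.9, 17.6 and 15.4 CPM under SCN:SBA and 8.82, 15.3 and 11.8 CPM in the control. Those in PI518671 at 5 dpi were 14.2, 13.01 and 27.6 CPM under SCN, 30.9, 24.6 and 23.8 CPM under SBA, 24.4, 15.4 and 20.9 CPM under SCN:SBA and 12.3, 0.722 and 0.925 CPM in the control. The treated libraries lay above the control in PI518671 only, and the smallest estimated count of the family, 9.08, belongs to replicate 2 of that control.

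Glyma.20g180800 had 57.4, 57.0 and 81.9 CPM under SCN, 84.3, 63.2 and 105 CPM under SBA, 61.0, 35.6 and 39.3 CPM under SCN:SBA and 78.3 and 90.3 CPM in the control in MN1806CN at 30 dpi. It had 73.1, 66.8 and 74.7 CPM under SCN, 76.3, 62.3 and 52.7 CPM under SBA, 77.7, 58.6 and 54.2 CPM under SCN:SBA and 116, 111 and 87.8 CPM in the control in PI518671 at 30 dpi. In PI518671 each treatment was below the control at this time, and in MN1806CN SCN:SBA was. At 5 dpi its MN1806CN values were 45.9, 46.2 and 60.5 CPM under SCN, 64.0, 111 and 93.6 CPM under SBA, 69.3, 88.4 and 86.4 CPM under SCN:SBA and 48.0, 83.1 and 55.9 CPM in the control. At 5 dpi its PI518671 values were 54.6, 94.5 and 157 CPM under SCN, 134, 115 and 110.2 CPM under SBA, 105, 78.6 and 115 CPM under SCN:SBA and 67.6, 8.58 and 6.62 CPM in the control. SBA and SCN:SBA were above the control in PI518671 at 5 dpi, the reverse of their order at 30 dpi, and SCN overlapped it.

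Glyma.02g309300, which shares no reads, had 18.9, 16.7 and 22.4 CPM under SCN, 14.5, 21.3 and 27.3 CPM under SBA, 11.4, 18.0 and 17.2 CPM under SCN:SBA and 19.6 and 11.8 CPM in the control in MN1806CN at 30 dpi. Its values in PI518671 roots at 30 dpi were 37.6, 42.2 and 41.7 CPM under SCN, 28.3, 5.90 and 35.4 CPM under SBA, 36.8, 34.5 and 33.4 CPM under SCN:SBA and 42.2, 37.5 and 28.0 CPM in the control. MN1806CN was lower than PI518671 in every treatment but SBA, where replicate 2 of PI518671 was low. At 5 dpi it had 5.81, 7.40 and 7.42 CPM under SCN, 15.1, 12.1 and 8.71 CPM under SBA, 15.5, 22.2 and 22.6 CPM under SCN:SBA and 3.93, 19.1 and 3.80 CPM in the control in MN1806CN. It had 32.7, 56.0 and 59.8 CPM under SCN, 17.5, 49.8 and 47.9 CPM under SBA, 32.0, 39.3 and 12.2 CPM under SCN:SBA and 40.8, 5.53 and 6.19 CPM in the control in PI518671 at 5 dpi. Each treatment overlapped its control in both cultivars, and the median of the member over all libraries was 15.5 CPM in MN1806CN (n = 23) and 36.1 CPM in PI518671 (n = 24).

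**Figure D2:**
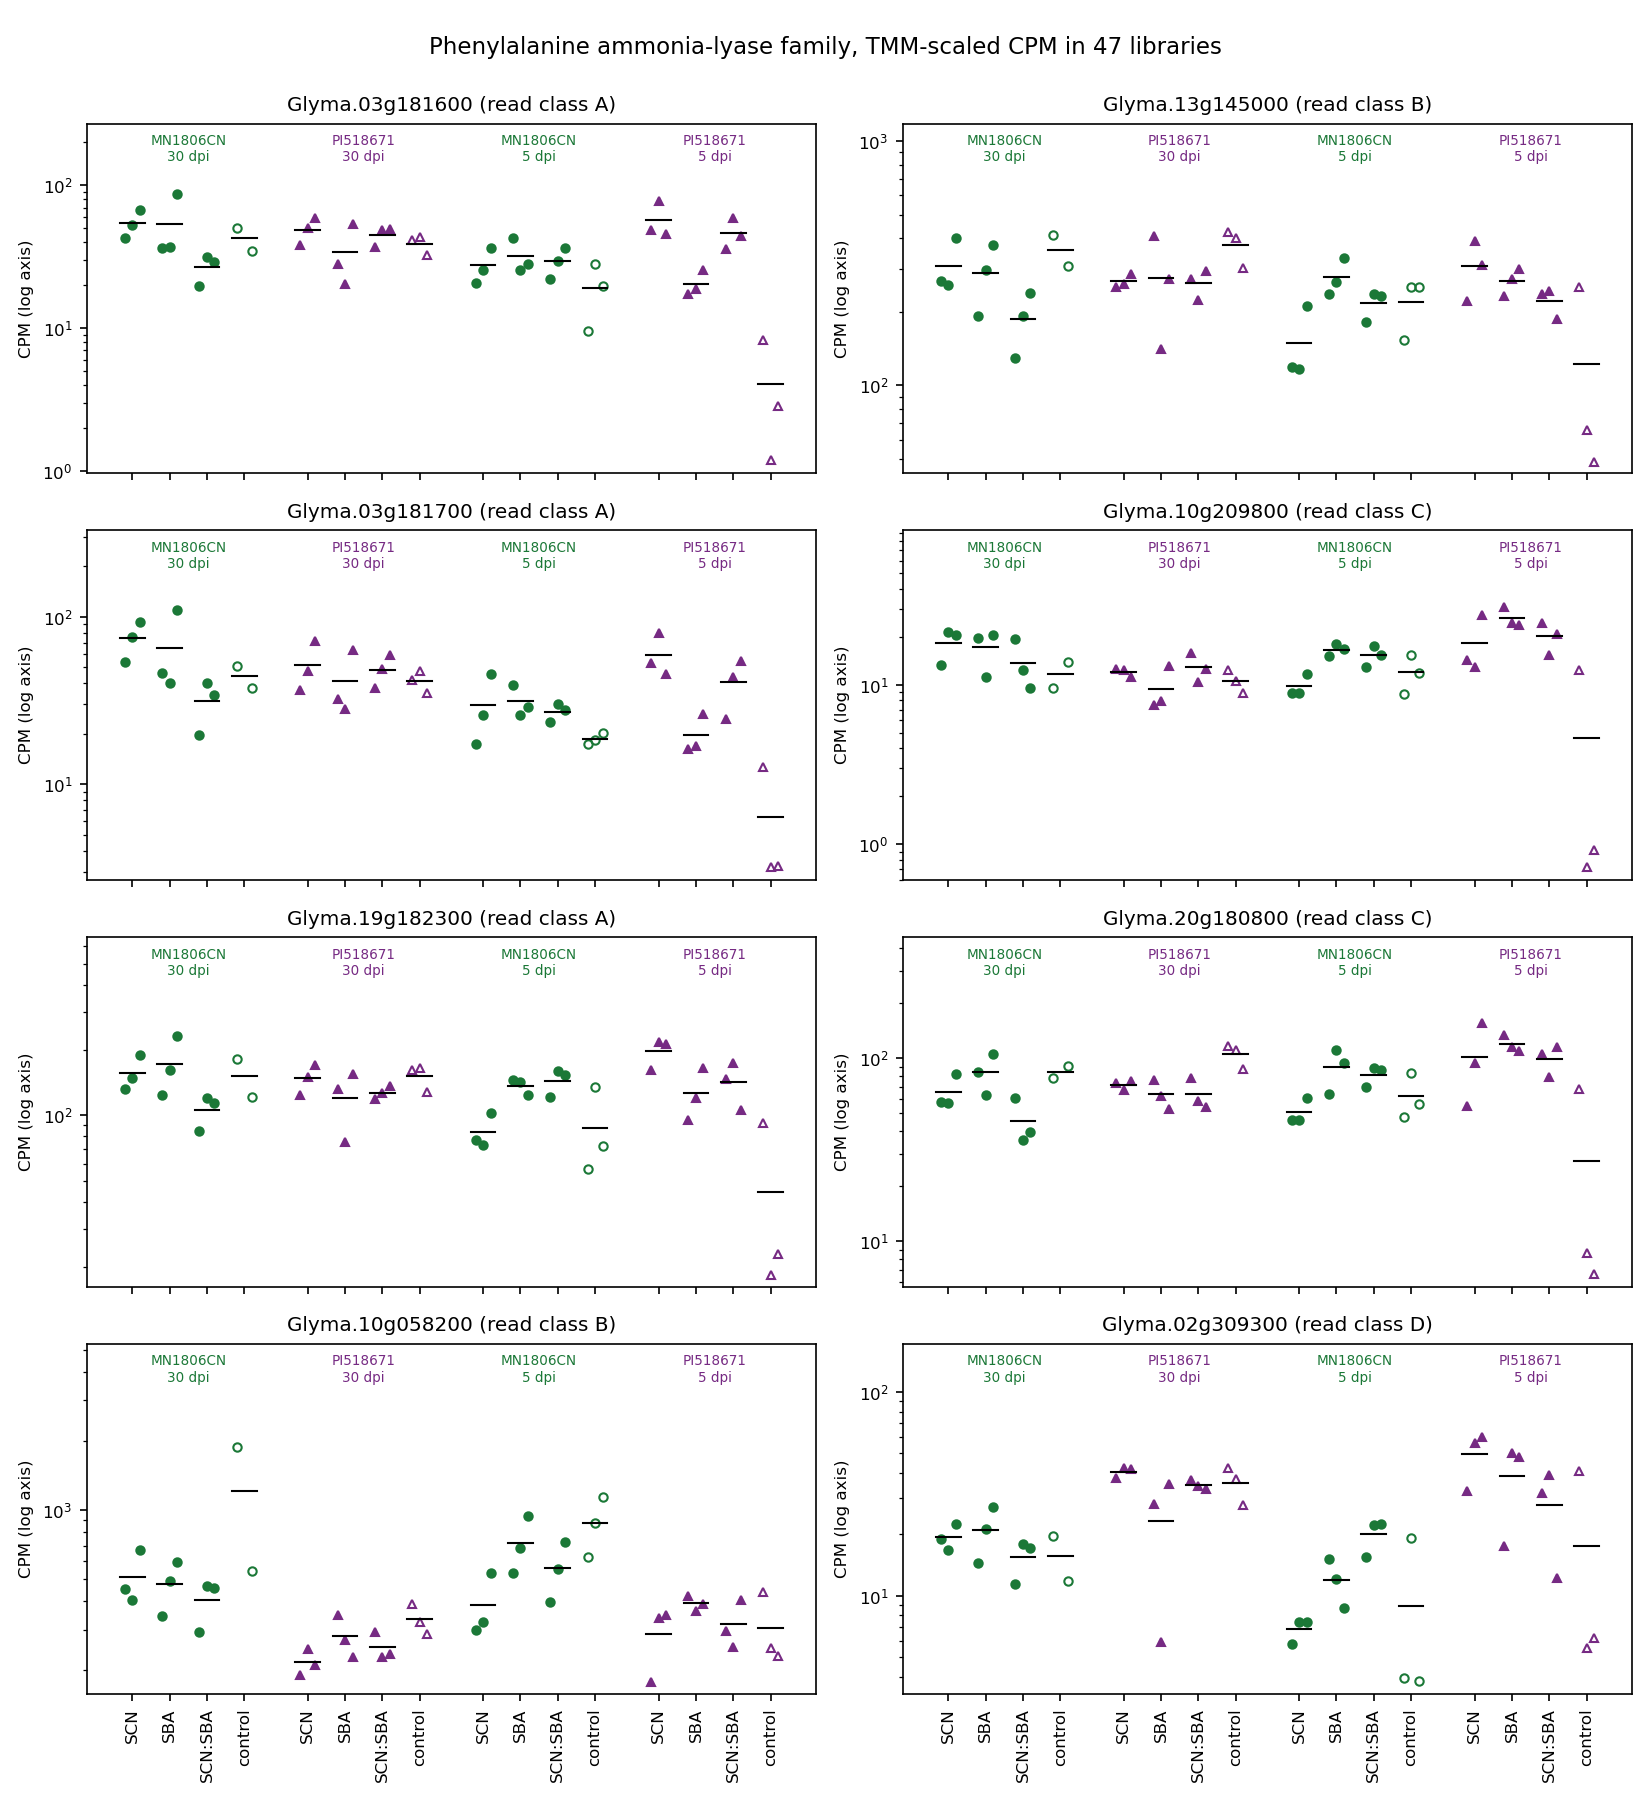
TMM-scaled CPM (log axis) of each member in the 47 libraries, by treatment (horizontal axis) within cultivar and time point. Points are libraries, open points are controls and bars are group means. In 7 of the 8 panels the PI518671 control at 5 dpi, at the right, holds 2 libraries below all other PI518671 libraries at 5 dpi, which for Glyma.03g181600 had 1.20 and 2.85 CPM.

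Over the 34 comparisons tested, 27 of 272 tests of a member passed an adjusted p of 0.05 (edgeR), 18 higher and 9 lower, in 13 comparisons. SCN:SBA was not compared with SCN or SBA alone, and no interaction of treatment and time point was tested. Over the same 34 comparisons 10.3% of all gene tests were called, a share close to that of the family. Of the 27 calls of members, 21 involve the PI518671 control at 5 dpi, which enters 8 comparisons, and 6 do not. Treatments are compared with the control of the same cultivar and time point, and the 3 treatments of such a set share their control libraries.

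In PI518671 at 5 dpi the called members all belonged to class A and were higher with the pest. Under SCN, 3 of 8 members rose and none fell, where 23.6% of all genes tested were called. Glyma.03g181600 rose by 3.84 ± 0.56 (SE, edgeR, adjusted p = 0.000904) on the log2 scale, Glyma.03g181700 by 3.25 ± 0.54 (SE, edgeR, adjusted p = 0.00182) and Glyma.19g182300 by 2.20 ± 0.52 (SE, edgeR, adjusted p = 0.0109). The median over the 8 members was 1.99, against 0.08 over all genes. The other 5 were not called, with log2 fold changes of -0.08 for Glyma.10g058200 and 1.38 to 2.04 for the remaining 4. The class A sum rose by 2.57 ± 0.52 (SE, edgeR, adjusted p = 0.00546).

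Under SCN:SBA in PI518671 at 5 dpi the same 3 members rose, with 21.5% of all genes called. The log2 fold changes were 3.53 ± 0.55 (SE, edgeR, adjusted p = 0.00205) for Glyma.03g181600, 2.72 ± 0.53 (SE, edgeR, adjusted p = 0.00508) for Glyma.03g181700 and 1.72 ± 0.51 (SE, edgeR, adjusted p = 0.0322) for Glyma.19g182300. The class A sum rose by 2.11 ± 0.52 (SE, edgeR, adjusted p = 0.0143). The family median was 1.82, against 0.13 over all genes.

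Under SBA alone, 1 of 8 members rose in PI518671 at 5 dpi, Glyma.03g181600, by 2.32 ± 0.52 (SE, edgeR, adjusted p = 0.0186), where 11.6% of all genes were called. Glyma.03g181700 at 1.62 ± 0.51 (SE, edgeR, adjusted p = 0.0581) and Glyma.19g182300 at 1.52 ± 0.51 (SE, edgeR, adjusted p = 0.0706) were not called. Class C members had the largest log2 fold changes of the family under SBA that were not called, 2.54 ± 0.80 (SE, edgeR, adjusted p = 0.0593) for Glyma.10g209800 and 2.15 ± 0.72 (SE, edgeR, adjusted p = 0.0704) for Glyma.20g180800. The class A sum was not called, at 1.61 ± 0.51 (SE, edgeR, adjusted p = 0.0583), and the family median was 1.57, against 0.19 over all genes.

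These calls depend on the control libraries. With control replicates 2 and 3 left out, Glyma.03g181600 under SCN was the only member still called, at 2.90 (edgeR, adjusted p = 0.0290). Under SCN:SBA, Glyma.03g181600 then stood at 2.56 (edgeR, adjusted p = 0.0670), and under SBA at 1.39 (edgeR, adjusted p = 0.472). Glyma.03g181700 was then at 2.32 under SCN and 1.77 under SCN:SBA, and Glyma.19g182300 at 1.21 under SCN and 0.70 under SCN:SBA. The class C values under SBA became 1.18 for Glyma.10g209800 and 0.90 for Glyma.20g180800. In a fit of only the groups compared, the calls of Glyma.03g181600 under SBA and Glyma.19g182300 under SCN:SBA were lost (edgeR, adjusted p = 0.0909 and 0.120). With SBA replicate 3, control replicate 2 or control replicate 3 left out alone, the call of Glyma.03g181600 under SBA was also lost, with 1.88 to 3.24 over the 6 libraries left out. That of Glyma.19g182300 under SCN was lost without control replicate 2 (1.88, edgeR, adjusted p = 0.0505), and that under SCN:SBA without SCN:SBA replicate 1 or 2 or control replicate 2 or 3, with 1.35 to 2.72 over the 6 libraries left out. The fit without both keeps 1 control library, which is assumed to vary like the other groups. With replicate 1 left out instead, 7 of 8 members were called under each treatment, the exception being Glyma.10g058200, and Glyma.03g181600 under SCN stood at 4.76 (edgeR, adjusted p = 0.000155). Calls rose over the whole table as well. Of 43122 genes, 8577 were then called higher and 6751 lower under SCN, against 5760 and 4408 with all libraries. Under SBA they were 6645 and 5715, against 2268 and 2729, and under SCN:SBA 8099 and 6176, against 5411 and 3880. The summed level of 4 IDs listed as nodule markers from general knowledge, which no annotation used here names, was 1425 to 18037 CPM under SCN, 45.6 to 3902 CPM under SBA, 464 to 6936 CPM under SCN:SBA and 30.2 to 268 CPM in the control, and its part in the result was not tested. All 4 had counts in 47 of 47 libraries.

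**Figure D3:**
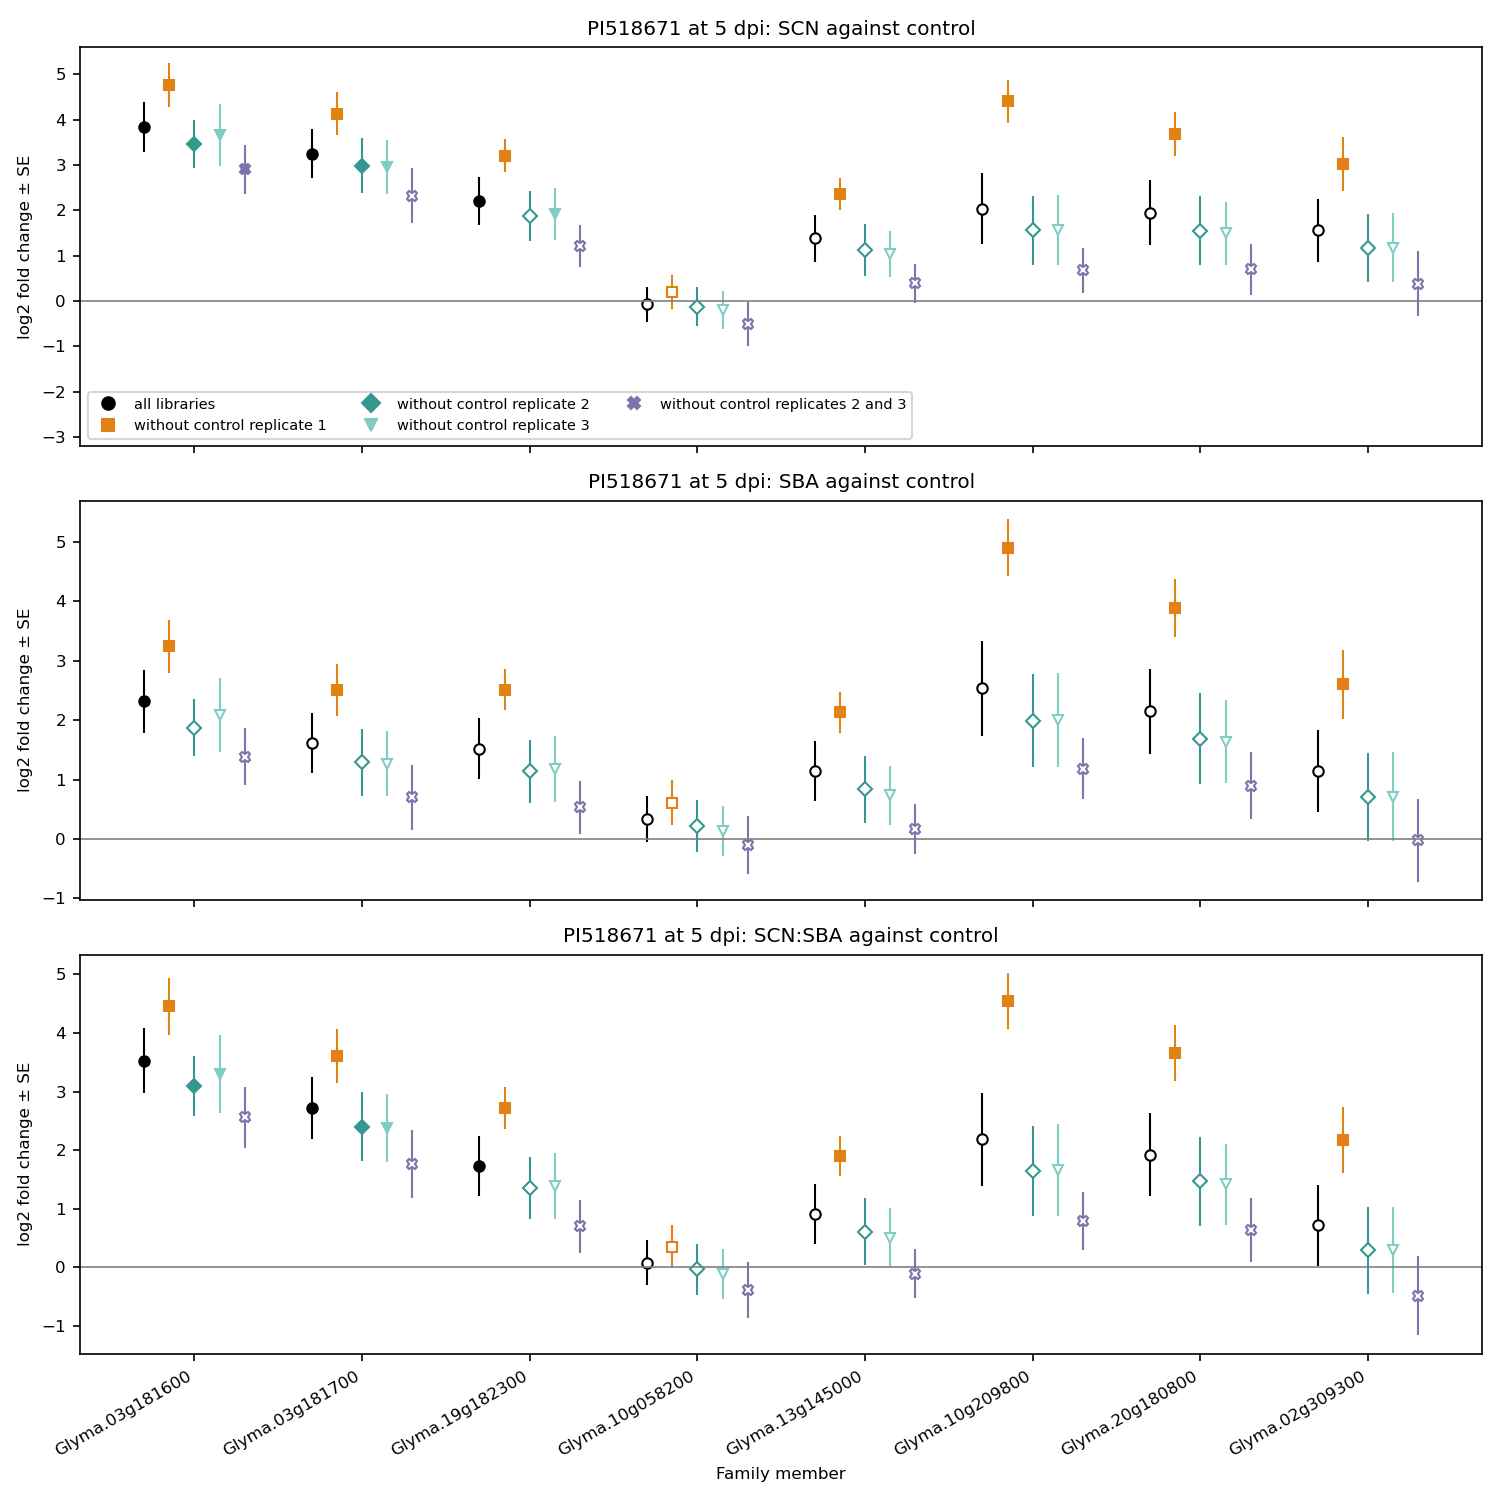
Log2 fold change ± SE (vertical axis) of the 8 members (horizontal axis) for SCN, SBA and SCN:SBA against control in PI518671 at 5 dpi, with all libraries, without each control library and without control replicates 2 and 3. Filled symbols passed an adjusted p of 0.05 (edgeR). Glyma.03g181600 under SCN stayed filled under every choice, between 2.90 and 4.76, while Glyma.10g058200 was open in all panels.

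The other 9 treatment comparisons had 0 members called by edgeR. In MN1806CN at 30 dpi, the members with an unadjusted p under 0.05 numbered 1 under SCN, 1 under SBA and 3 under SCN:SBA, DESeq2 called 0 under SCN, 0 under SBA and 2 under SCN:SBA, and edgeR called 0.57% under SCN, 0% under SBA and 14.6% under SCN:SBA of all genes. Glyma.10g058200 was at -1.24 ± 0.50 (SE) under SCN, -1.33 ± 0.50 under SBA and -1.60 ± 0.50 under SCN:SBA, against a control whose replicate 1 is the highest library. Without that replicate, which leaves 1 control library, Glyma.10g058200 was at -0.05 under SCN, -0.15 under SBA and -0.41 under SCN:SBA. In MN1806CN at 5 dpi, the members with an unadjusted p under 0.05 numbered 2 under SCN, 2 under SBA and 2 under SCN:SBA, DESeq2 called 1 under SCN, 0 under SBA and 0 under SCN:SBA, and edgeR called 0.00464% under SCN, 0% under SBA and 7.44% under SCN:SBA of all genes. Glyma.10g058200 was at -1.17 ± 0.36 (SE, edgeR, adjusted p = 0.148) under SCN, where its 3 libraries lay below the 3 controls, and Glyma.02g309300 was at 1.15 ± 0.51 (SE, edgeR, adjusted p = 0.159) under SCN:SBA.

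In PI518671 at 30 dpi, the members with an unadjusted p under 0.05 numbered 2 under SCN, 1 under SBA and 1 under SCN:SBA, DESeq2 called 0 under SCN, 1 under SBA and 1 under SCN:SBA, and edgeR called 0.357% under SCN, 0.00696% under SBA and 1.02% under SCN:SBA of all genes. Glyma.20g180800, whose treated libraries all lay below the control, was at -0.54 ± 0.22 under SCN, -0.68 ± 0.22 under SBA and -0.73 ± 0.22 under SCN:SBA (log2 fold change ± SE), with an adjusted p of 0.107 in the last (edgeR). Under SCN at 30 dpi the other members outside class A had -0.48 (Glyma.13g145000), 0.20 (Glyma.10g209800), -0.54 (Glyma.20g180800), 0.19 (Glyma.02g309300) and -0.62 (Glyma.10g058200) on the log2 scale. Class A members had 0.34 (Glyma.03g181600), 0.34 (Glyma.03g181700) and -0.01 (Glyma.19g182300) in that comparison, none of them called by edgeR.

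**Figure D4:**
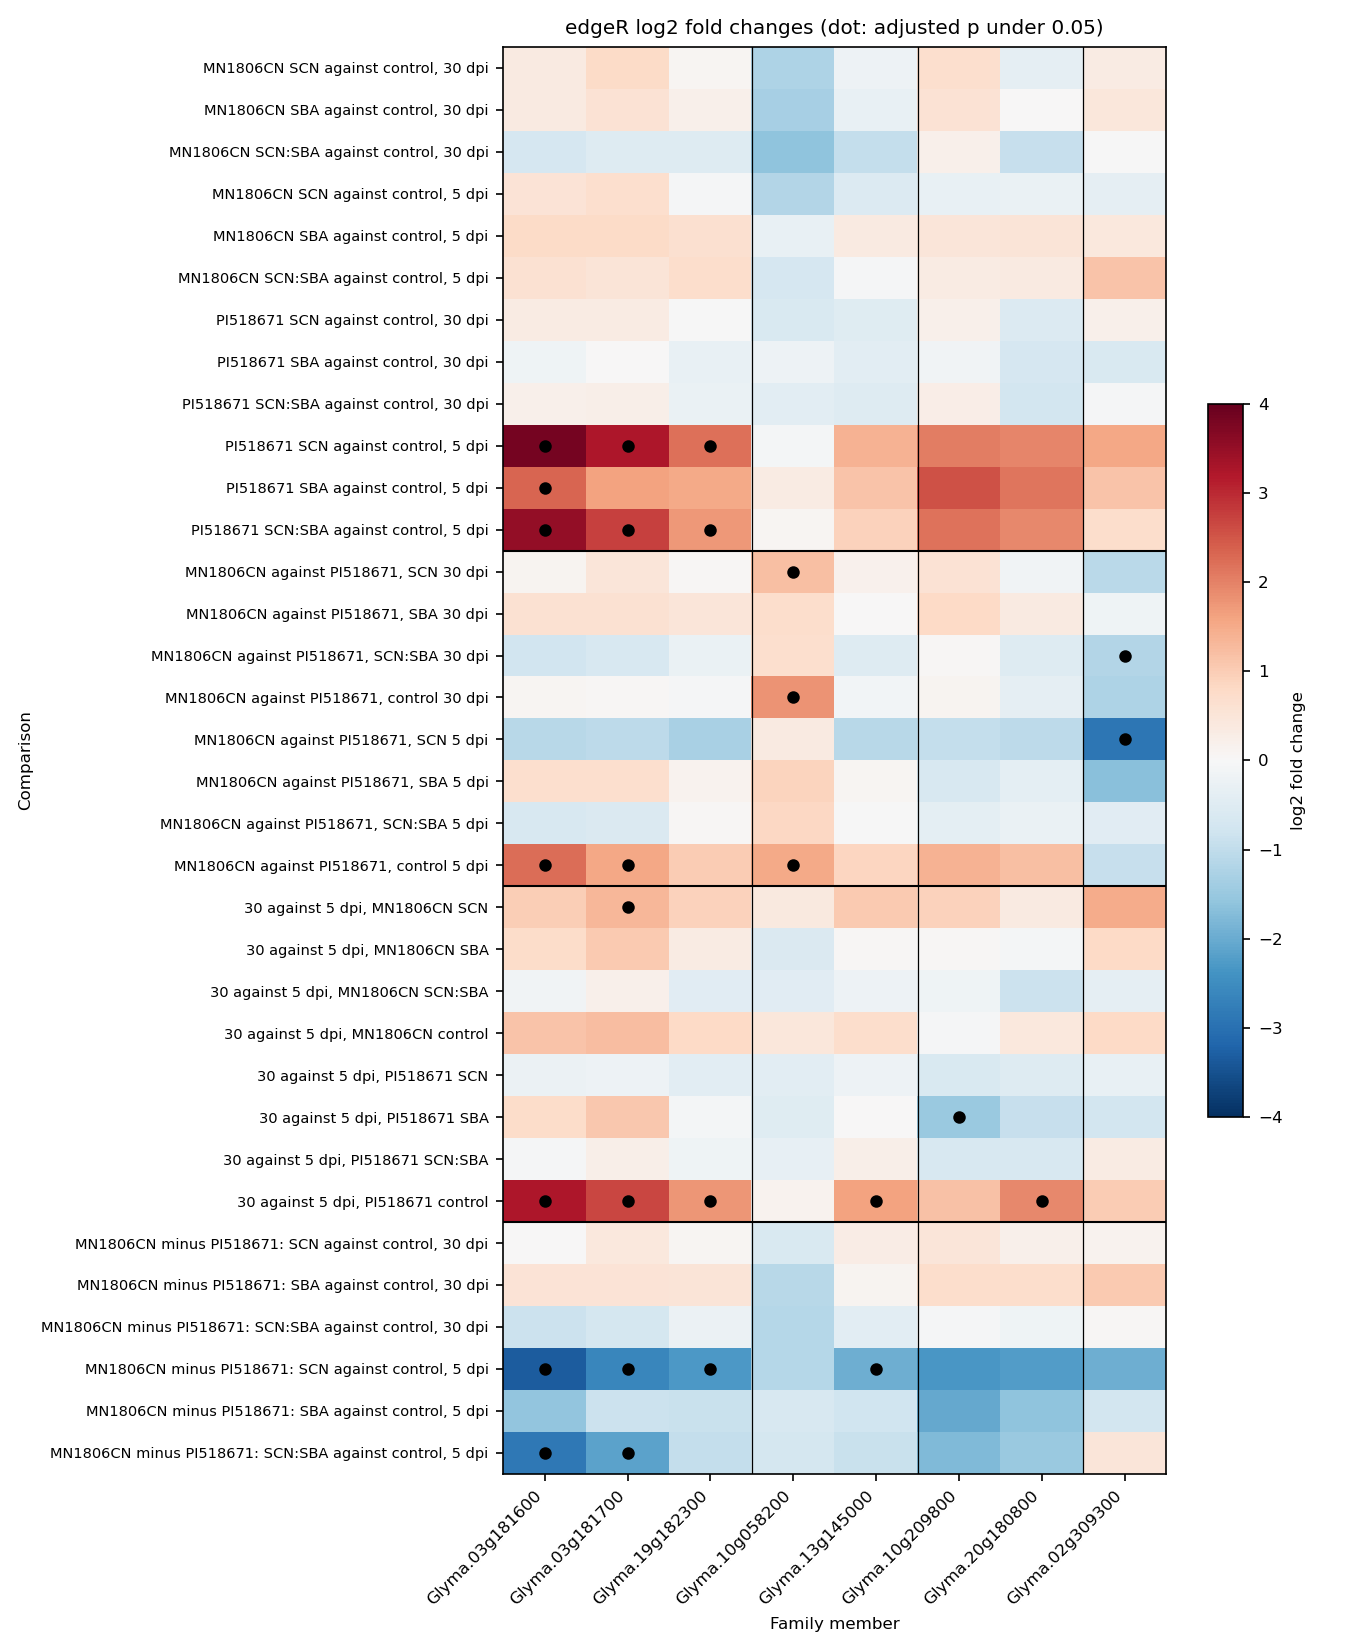
Log2 fold changes of the 8 members (columns, by read class) in the 34 comparisons (rows), with red for higher and blue for lower in the condition named first and a dot where the adjusted p was under 0.05 (edgeR). The 27 dots gather in the rows that use the PI518671 control at 5 dpi, which hold 21 of them.

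The difference between the cultivars in the response to a treatment was tested as an interaction, MN1806CN minus PI518671. For SCN at 5 dpi, 4 of 8 members differed, all with a smaller value in MN1806CN, where 12.5% of all genes were called. The differences on the log2 scale were -3.34 ± 0.68 (SE, edgeR, adjusted p = 0.00442) for Glyma.03g181600, -2.60 ± 0.63 (SE, edgeR, adjusted p = 0.0114) for Glyma.03g181700, -2.30 ± 0.62 (SE, edgeR, adjusted p = 0.0210) for Glyma.19g182300 and -1.96 ± 0.61 (SE, edgeR, adjusted p = 0.0414) for Glyma.13g145000. In the fits within each cultivar, Glyma.03g181600 was at 0.55 ± 0.37 in MN1806CN and 3.84 ± 0.56 in PI518671 under SCN (log2 fold change ± SE). The median over the members was -2.27, against -0.11 over all genes, and the class A sum differed by -2.42 ± 0.61 (SE, edgeR, adjusted p = 0.0151), whereas class B, at -1.57 ± 0.51 (SE, edgeR, adjusted p = 0.0505), was not called. With 1 of the 12 libraries left out, Glyma.19g182300 ranged over -3.26 to -1.83 and lost its call without MN1806CN SCN replicate 1 or 2, MN1806CN control replicate 2 or PI518671 control replicate 2 or 3. The same 5 libraries, PI518671 SCN replicate 2 or 3 and MN1806CN control replicate 3 each ended the call of Glyma.13g145000, which ranged over -2.93 to -1.50. Without PI518671 control replicate 1, 7 of 8 members were called, and the share of all genes called in that refit is not given here. A fit of only the groups compared also ended the calls of Glyma.19g182300 and Glyma.13g145000 (edgeR, adjusted p = 0.0787 and 0.127).

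For SCN:SBA at 5 dpi, 2 of 8 members differed between the cultivars, Glyma.03g181600 by -2.87 ± 0.67 (SE, edgeR, adjusted p = 0.00847) and Glyma.03g181700 by -2.13 ± 0.62 (SE, edgeR, adjusted p = 0.0285), with 13.3% of all genes called. The class A sum was not called, at -1.39 ± 0.61 (SE, edgeR, adjusted p = 0.137). The call of Glyma.03g181700 was lost without PI518671 SCN:SBA replicate 3, MN1806CN SCN:SBA replicate 1 or 3, MN1806CN control replicate 3 or PI518671 control replicate 2 or 3, with -3.09 to -1.83 over the 12 libraries left out, and in a fit of only the groups compared (edgeR, adjusted p = 0.0655). For SBA at 5 dpi 0 members were called by edgeR or DESeq2, with 2 at an unadjusted p under 0.05 and 9.24% of all genes called. At 30 dpi edgeR and DESeq2 called 0 members in all 3 interactions, and 0, 0 and 1 had an unadjusted p under 0.05 for SCN, SBA and SCN:SBA, where 0.0278%, 0% and 3.89% of all genes were called by edgeR. With PI518671 control replicates 2 and 3 left out, 0 members were called in the 3 interactions at 5 dpi, and Glyma.03g181600 stood at -2.43 for SCN and -2.01 for SCN:SBA (edgeR, adjusted p = 0.117 and 0.120). The other values were then -1.71 for Glyma.03g181700, -1.33 for Glyma.19g182300 and -1.004 for Glyma.13g145000 under SCN and -1.29 for Glyma.03g181700 under SCN:SBA.

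Between the cultivars under the same treatment, 7 of 64 tests were called, 5 higher and 2 lower in MN1806CN, and 13.5% of the tests of all genes. Glyma.10g058200 was called higher in MN1806CN in 3 of the 8 comparisons. Its difference was 1.21 ± 0.37 (SE, edgeR, adjusted p = 0.0252) under SCN at 30 dpi, where it was 1 of 8 members called and 19.5% of all genes were. It was 1.81 ± 0.40 (SE, edgeR, adjusted p = 0.0115) in the control at 30 dpi, again as 1 of 8 members, with 6.76% of all genes called. In the control at 5 dpi it was 1.51 ± 0.37 (SE, edgeR, adjusted p = 0.00556). The groups did not overlap in any of the 3. Without replicate 1 of the MN1806CN control, the difference at 30 dpi was 0.65 (edgeR, adjusted p = 0.444). Under SCN at 30 dpi the call was lost without MN1806CN replicate 3 or any PI518671 library, with 0.93 to 1.39 over the 6 left out. In the comparisons not called, the mean of Glyma.10g058200 was also higher in MN1806CN. At 30 dpi the means were 478 against 283 CPM under SBA and 405 against 254 CPM under SCN:SBA. At 5 dpi they were 385 against 289 CPM under SCN, 718 against 392 CPM under SBA and 558 against 318 CPM under SCN:SBA. The cultivars overlapped in each of these but SBA at 5 dpi.

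The summed pair of class B differed by less. It stood at 0.74 ± 0.35 (SE, edgeR, adjusted p = 0.159) under SCN at 30 dpi, 1.11 ± 0.39 (SE, edgeR, adjusted p = 0.0959) in the control at 30 dpi and 1.36 ± 0.37 (SE, edgeR, adjusted p = 0.0114) in the control at 5 dpi, so that the calls of Glyma.10g058200 at 30 dpi do not hold for the pair. The ratio of Glyma.10g058200 to Glyma.13g145000 was 1.59 to 4.56 in MN1806CN (median 2.33) and at least 1.5 in 23 of 23 libraries. In PI518671 without the control at 5 dpi it was 0.739 to 2.18 (median 0.958), at least 1.5 in 3 and below 1 in 11 of 21 libraries. The 3 libraries of that control had ratios of 1.75 to 4.74. MN1806CN reads were counted on Williams 82 transcripts, and the part of the division of reads within the pair in this ratio was not tested.

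**Figure D5:**
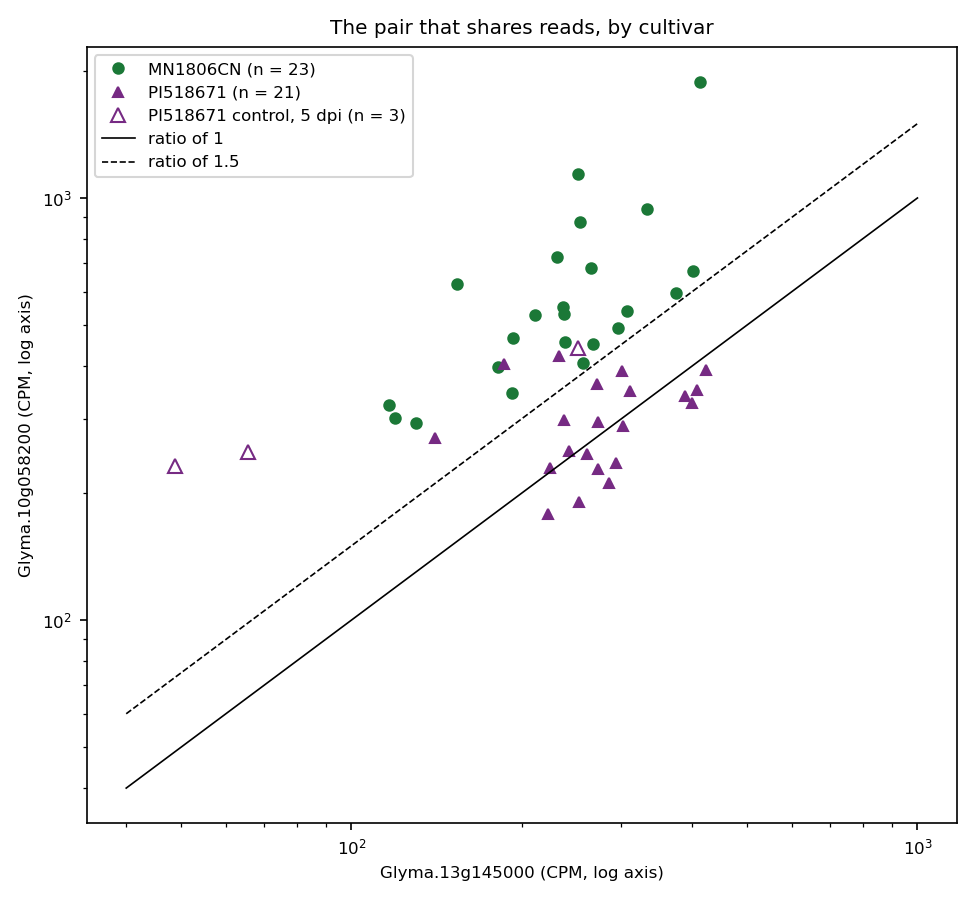
CPM of Glyma.10g058200 (vertical axis) against Glyma.13g145000 (horizontal axis), both on log axes, in 23 MN1806CN and 24 PI518671 libraries, with lines at ratios of 1 and 1.5. All 23 MN1806CN libraries lie above the line at 1.5, and 11 PI518671 libraries lie below the line at 1.

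Glyma.02g309300 was lower in MN1806CN under SCN at 5 dpi, at -2.90 ± 0.72 (SE, edgeR, adjusted p = 0.0188), as 1 of 8 members called where 7.72% of all genes were. Its values there were 5.81, 7.40 and 7.42 CPM in MN1806CN and 32.7, 56.0 and 59.8 CPM in PI518671, with no overlap. Under SCN:SBA at 30 dpi it was at -1.18 ± 0.41 (SE, edgeR, adjusted p = 0.0358), again 1 of 8 members, with 29.4% of all genes called. In the controls it was at -1.23 ± 0.47 (SE, adjusted p = 0.130) at 30 dpi and -0.93 ± 0.67 (adjusted p = 0.336) at 5 dpi, and under SCN at 30 dpi at -1.09 ± 0.41 (adjusted p = 0.0673), none called by edgeR. The 3 remaining differences of Glyma.02g309300, not called either, were -0.18 ± 0.40 under SBA at 30 dpi, -1.67 ± 0.68 under SBA at 5 dpi and -0.45 ± 0.66 under SCN:SBA at 5 dpi. Without PI518671 control replicates 2 and 3, the control difference at 5 dpi was -2.05 (edgeR, adjusted p = 0.0917). Leaving out PI518671 SCN replicate 2 or any MN1806CN SCN library ended the call at 5 dpi, with values of -3.12 to -2.75, and leaving out any of the 6 libraries ended that at 30 dpi, with -1.28 to -0.93.

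In the controls at 5 dpi, 3 of 8 members were higher in MN1806CN, where 22.5% of all genes were called. Beside Glyma.10g058200 these were Glyma.03g181600 at 2.24 ± 0.49 (SE, edgeR, adjusted p = 0.00296) and Glyma.03g181700 at 1.54 ± 0.45 (SE, edgeR, adjusted p = 0.0171). The class A sum was at 1.22 ± 0.43 (SE, edgeR, adjusted p = 0.0492). Without PI518671 control replicates 2 and 3, 0 members were called, and the differences were 1.35 for Glyma.03g181600, 0.68 for Glyma.03g181700 and 1.13 for Glyma.10g058200 (edgeR, adjusted p = 0.151, 0.416 and 0.196). A fit of only the groups compared also ended all 3 calls (edgeR, adjusted p = 0.0639 for Glyma.03g181600, 0.0975 for Glyma.03g181700 and 0.0873 for Glyma.10g058200). Leaving out replicate 2 or 3 alone also ended the call of Glyma.03g181700, with 1.22 to 2.48 over the 6 libraries left out, and without replicate 1 of that control 7 of 8 members were called. The share of all genes called without replicate 1 is not given here. In the 3 remaining comparisons edgeR called 0 members. Those with an unadjusted p under 0.05 numbered 1 under SBA at 30 dpi, 2 under SBA at 5 dpi and 1 under SCN:SBA at 5 dpi, DESeq2 called 1, 0 and 0, and edgeR called 17.9%, 3.65% and 0.851% of all genes.

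Between 30 and 5 dpi, 7 of 64 tests were called, and 15.1% of the tests of all genes. Of the 7, 5 belong to the PI518671 control, where 40.4% of all genes were called. All 5 were higher at 30 dpi. Glyma.03g181600 differed by 3.24 ± 0.47 (SE, edgeR, adjusted p = 1.25e-06), Glyma.03g181700 by 2.68 ± 0.46 (SE, edgeR, adjusted p = 1.38e-05) and Glyma.19g182300 by 1.77 ± 0.39 (SE, edgeR, adjusted p = 0.000369). Glyma.13g145000 differed by 1.62 ± 0.40 (SE, edgeR, adjusted p = 0.00152) and Glyma.20g180800 by 1.92 ± 0.47 (SE, edgeR, adjusted p = 0.00123). The summed classes differed by 2.11 ± 0.39 (SE, edgeR, adjusted p = 4.35e-05) for A, 0.73 ± 0.35 (SE, edgeR, adjusted p = 0.0939) for B and 1.89 ± 0.46 (SE, edgeR, adjusted p = 0.00110) for C.

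Without replicates 2 and 3 of the 5 dpi control, 2 of these 5 were still called, Glyma.03g181600 at 2.35 (edgeR, adjusted p = 0.00750) and Glyma.03g181700 at 1.81 (edgeR, adjusted p = 0.0439). The other 3 were at 0.83 for Glyma.19g182300, 0.69 for Glyma.13g145000 and 0.75 for Glyma.20g180800. A fit of only the groups compared ended the calls of the same 3 (edgeR, adjusted p = 0.0519, 0.0788 and 0.103). In MN1806CN under SCN, 1 of 8 members was higher at 30 dpi, Glyma.03g181700 at 1.33 ± 0.43 (SE, edgeR, adjusted p = 0.0357), where 13.7% of all genes were called. All 8 members had a positive value there, with a median of 0.94 against -0.02 over all genes. Class A as a sum was at 0.99 ± 0.38 (SE, edgeR, adjusted p = 0.0748). In PI518671 under SBA, 1 of 8 was lower at 30 dpi, Glyma.10g209800 at -1.47 ± 0.50 (SE, edgeR, adjusted p = 0.0420), with 15.3% of all genes called. Its 30 dpi values of 7.49, 7.87 and 13.1 CPM lay below its 5 dpi values of 30.9, 24.6 and 23.8 CPM. Class C as a sum was at -0.97 ± 0.45 (SE, edgeR, adjusted p = 0.153), and in a fit of only the groups compared Glyma.10g209800 was not called (edgeR, adjusted p = 0.0528).

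Leaving out 1 library gave 1.03 to 1.78 for Glyma.03g181700 under SCN, with the call lost without SCN replicate 1 or 2 at 5 dpi or SCN replicate 2 or 3 at 30 dpi. For Glyma.10g209800 under SBA it gave -1.78 to -1.28, with the call lost without any of the 6 libraries other than replicate 3 at 30 dpi. The other 5 time comparisons had 0 members called by edgeR. For SBA, SCN:SBA and control in MN1806CN and SCN and SCN:SBA in PI518671, in that order, members with an unadjusted p under 0.05 numbered 1, 0, 2, 0 and 0, DESeq2 called 1, 0, 1, 0 and 0, and edgeR called 20.5%, 3.99%, 21%, 0.148% and 5.72% of all genes. Glyma.20g180800 lay lower at 30 than at 5 dpi without overlap under SCN:SBA in both cultivars, at -0.85 ± 0.46 (SE, edgeR, adjusted p = 0.320) in MN1806CN and -0.65 ± 0.46 (SE, edgeR, adjusted p = 0.524) in PI518671. In the MN1806CN control, Glyma.03g181600 and Glyma.03g181700 lay higher at 30 than at 5 dpi without overlap. There 7 of 8 members had a positive value, with a median of 0.75 and a lowest adjusted p of 0.0550 (edgeR). Positive values numbered 6 under SBA and 1 under SCN:SBA in MN1806CN, and 0 under SCN and 3 under SCN:SBA in PI518671.

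Members varied together to different degrees across libraries. Pearson's r was taken on log2(CPM + 1) over 47 libraries, which differ in cultivar, treatment, time point and depth. It was 0.95 for Glyma.03g181600 and Glyma.03g181700, 0.91 for Glyma.03g181600 and Glyma.19g182300 and 0.86 for Glyma.10g209800 and Glyma.20g180800, pairs that also share reads. Between classes, Glyma.19g182300 and Glyma.13g145000 had r = 0.87. Glyma.10g058200 had r between -0.32 (Glyma.02g309300) and 0.32 (Glyma.13g145000, its own class) with both cultivars pooled. Within cultivars its r with Glyma.13g145000 was 0.69 over 23 MN1806CN libraries and 0.31 over 24 PI518671 libraries, and that with Glyma.02g309300 was 0.05 and 0.12 in the same order. Over the 45 libraries without PI518671 control replicates 2 and 3 at 5 dpi, the values were 0.92, 0.79 and 0.61 for the first 3 pairs and 0.74 for Glyma.19g182300 and Glyma.13g145000. Across all 34381 other genes with a mean of at least 1 CPM, the 5 with the most similar pattern to the family sum had r = 0.79 to 0.85 over 47 libraries and 0.61 to 0.76 over 45, against a median of 0.02 over all those genes. They carry no name in the table and are not identified here. The sum of the 4 IDs listed as nodule markers had r = 0.11 with the family sum over 47 libraries and -0.11 over 45.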

How the data were processed

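Single-end reads of whole-root RNA from 47 soybean libraries were trimmed with Btrim64 and assigned to the primary transcripts of Wm82.a2.v1 with Salmon 0.9.1 by the authors, who deposited the estimated count of each gene and library without normalization. Of these values, 42.7% had a fractional part, and they were rounded to whole numbers for the tests. Samples were grouped by cultivar, treatment and time point from the labels. Library totals were 8472717 to 47902174, no 2 libraries held identical values, and reads carry no molecular identifiers.

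Genes with 0.5 CPM in at least 1 library were kept (43122 of 55983), as in the study's methods. Changes were tested with edgeR 4.0.16 in R 4.3.3 (TMM, quasi-likelihood F test, two-sided) with Benjamini-Hochberg adjustment over all kept genes and a threshold of 0.05. Treatment fits held the libraries of 1 cultivar and time point, cultivar and interaction fits those of 1 time point, and time fits all 47. A standard error is the absolute log2 fold change divided by the root of its F statistic. The study's methods state no differential test. The fits were tested on simulated data before use. Descriptive values were computed in Python 3.11.15 with pandas 2.3.3 and numpy 2.4.6, and plots with matplotlib 3.10.9.

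All 8 members are named by ID, with each library's value for members called in any comparison, which were all 8. Other genes of the pathway were to be taken by product name and similar-pattern genes to be named where annotated, but 0 of 55983 IDs matched the RefSeq table used here. Nodule tissue was followed with 4 IDs from general knowledge, which could not be checked here. The members and lists were chosen with earlier results of these data known. Alternatives were RLE size factors, no filter, filterByExpr, DESeq2 1.42.0, the replicate number as a block, only the groups compared, CPM on plain totals, other correlation measures and each library left out, and 2 were added after seeing the data: classes that share reads summed, and PI518671 control replicates 2 and 3 at 5 dpi left out.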

Additional observations from a re-analysis of the deposited data

Results flagged for a closer look

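The response of class A members to SCN at 5 dpi differed between MN1806CN and PI518671 by the interaction test of edgeR, by -3.34 on the log2 scale for Glyma.03g181600 (adjusted p = 0.00442), -2.60 for Glyma.03g181700 (adjusted p = 0.0114) and -2.30 for Glyma.19g182300 (adjusted p = 0.0210), and that of Glyma.13g145000 by -1.96 (adjusted p = 0.0414). The response to SCN:SBA at 5 dpi differed by -2.87 for Glyma.03g181600 (adjusted p = 0.00847) and -2.13 for Glyma.03g181700 (adjusted p = 0.0285). All 6 use the PI518671 control at 5 dpi, and without its replicates 2 and 3 none of the 6 was called.

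Glyma.20g180800 in PI518671 lay above the control in every library at 5 dpi and below it in every library at 30 dpi, under SBA (-0.68 at 30 dpi and 2.15 at 5 dpi on the log2 scale) and under SCN:SBA (-0.73 at 30 dpi and 1.92 at 5 dpi). The difference between the time points in these responses was not tested, and none of the 4 values was called by edgeR. Without PI518671 control replicates 2 and 3 the 5 dpi values were 0.90 under SBA and 0.64 under SCN:SBA, and without replicate 1 they were 3.88 and 3.66, both called.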

How the results depend on the processing

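Across the alternatives, 0 of the 27 called log2 fold changes reversed. RLE size factors, no filter, filterByExpr and DESeq2 kept all 27 past the threshold, the fit of only the groups compared ended 12, the replicate block 1, summing the members that share reads 9, and leaving out PI518671 control replicates 2 and 3 at 5 dpi 18 of the 21 it touches. Named by treatment where compared with the control, the numbers of members called that moved by over 1.5 times were these. With DESeq2 they were 1 in PI518671 SBA at 30 dpi, PI518671 SCN:SBA at 30 dpi, MN1806CN SCN at 5 dpi, the cultivars under SBA at 30 dpi, MN1806CN SBA over time and MN1806CN control over time, 2 in MN1806CN SCN:SBA at 30 dpi, the cultivars under SCN at 5 dpi, the cultivars under SCN at 30 dpi and PI518671 SBA over time, 3 in MN1806CN SCN over time, 4 in PI518671 SBA at 5 dpi and 5 in PI518671 SCN at 5 dpi. With only the groups compared they were 0 in PI518671 SBA at 5 dpi, the cultivars in control at 5 dpi and PI518671 SBA over time, 1 in PI518671 SCN:SBA at 30 dpi, MN1806CN control over time and the SCN:SBA interaction at 5 dpi, 2 in PI518671 SCN at 30 dpi, the cultivars in control at 30 dpi, PI518671 control over time and the SCN interaction at 5 dpi, 3 in the cultivars under SCN at 5 dpi and the cultivars under SCN at 30 dpi and 6 in MN1806CN SCN over time. RLE size factors gave 1 in the cultivars under SBA at 30 dpi, and filterByExpr gave 1 in the cultivars under SBA at 30 dpi. Without PI518671 control replicates 2 and 3 they were 0 in PI518671 SBA at 5 dpi, PI518671 SCN:SBA at 5 dpi, the cultivars in control at 5 dpi, the SCN interaction at 5 dpi and the SCN:SBA interaction at 5 dpi, 1 in PI518671 SCN at 5 dpi and 2 in PI518671 control over time. With each library left out in turn they ranged from 0 to 1 in MN1806CN SCN:SBA at 30 dpi, the cultivars under SCN at 5 dpi, the cultivars under SCN at 30 dpi, the cultivars under SCN:SBA at 30 dpi, the cultivars in control at 30 dpi, PI518671 SBA over time and MN1806CN SBA over time, 0 to 2 in MN1806CN SCN:SBA at 5 dpi, the cultivars under SBA at 30 dpi and MN1806CN SCN over time, 0 to 3 in MN1806CN control over time, 0 to 6 in the SBA interaction at 5 dpi, 0 to 7 in PI518671 SBA at 5 dpi, 1 to 6 in the SCN:SBA interaction at 5 dpi and 2 to 7 in PI518671 SCN at 5 dpi, PI518671 SCN:SBA at 5 dpi, the cultivars in control at 5 dpi and the SCN interaction at 5 dpi. Where this or the last choice leaves 1 library in a group, that library is assumed to vary like the others. Of 197 such refits of the called changes, 144 kept the call and 53 lost it. The number of all genes called also moved between fits. With only the groups compared, 3262 genes were higher and 2758 lower in PI518671 SCN at 30 dpi, against 132 and 22 in the main fit. In PI518671 control over time the numbers fell instead, to 5640 and 5265 from 9022 and 8404. The member counts of this section are not set beside the share of all genes in each fit, so they describe the fits and not the members alone. The causes of these shifts were not tested.

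Replicate numbers were checked for pairing. Of 79 same-numbered pairs, 25 had deviations that correlated above 0.1. Only the cultivar comparison of the controls at 30 dpi, which has 2 pairs, had all of them above it (r = 0.168 and 0.108). The samples were tested as unpaired. With so few libraries per group, this check cannot exclude an effect of the blocks. The labels do not say which block a replicate number stands for. Pairs of 30 with 5 dpi came from different water baths, and the replicate block in the time fits also joins such plants. With the replicate block the numbers called were 1 in MN1806CN SCN at 5 dpi, MN1806CN SCN:SBA at 5 dpi, MN1806CN SCN:SBA at 30 dpi and MN1806CN control over time and 2 in PI518671 SBA at 5 dpi, and other counts stayed within 1.5 times.

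CPM on plain totals moved 6 of 128 group means by more than 1 SD. Named alternatives not run were the sum of members with near-identical proteins, the order of members per length, the pathway lists and the shoot markers, since the IDs could not be joined to sequences, lengths or product names. Calls of low members rest on few counts, down to 9.08 for Glyma.10g209800 in PI518671 control replicate 2 at 5 dpi.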
